A study of Mus musculus with 2 samples.

Results

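The tripartite motif (Trim) genes were taken from retinal RNA of mouse pups at postnatal day 15 as every symbol made of Trim, digits and at most 1 lower-case letter, leaving out Trim25 and Trim28. This gave 63 genes with 89 transcripts among 23356 gene symbols. There was 1 control library and 1 triple mutant library. Both came from animals with loxP-flanked (flox/flox) alleles of Dnmt1, Dnmt3a and Dnmt3b, the genes of the DNA methyltransferases. The control was Rx-Cre negative and the mutant Rx-Cre positive, so that Cre under Rx regulatory sequence could remove the flanked parts in the retinal lineage, while cells outside that lineage keep the intact alleles. The strain is labelled C57BL/6 (control) and C57BL/7 (mutant). How many animals gave each library was not known here. Each level is the authors' FPKM, a fragment count scaled to transcript length and library size, summed over a gene's transcripts. Where a pair of levels follows a gene, the control comes first. There were no replicates, so the differences are between these libraries and the genotypes were not tested.

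Trim proteins are built around a RING domain, which passes ubiquitin to a target, followed by B-box and coiled-coil parts that let the proteins assemble. The carboxy end sets what is bound: a SPRY domain in many antiviral members, NHL repeats in several neuronal members, a COS box in members that sit on microtubules or the sarcomere, and a PHD finger with a bromodomain in members that act on chromatin. Several SPRY members are known to be induced by interferon through short promoter elements read by interferon-activated transcription factors. In the mouse, relatives of the primate retroviral restriction factor TRIM5 lie side by side on chromosome 7.

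Those elements are shown first, because among members with a promoter window they separate those higher in the mutant library from nearly all the others. The motif searched was GAAA, any 2 bases and GAAA again on either strand, in the RefSeq promoter windows of GRCm38.p6 (250 bases before the start to 50 after it). The windows matched 48 of the 63 members by symbol, and Trim14, given below, was among those without a window. Each stretch below has 30 bases on the gene's own strand, 5′ to 3′, with the motif in capitals; where it lies on the opposite strand it reads TTTC, any 2 bases and TTTC. Trim30a has an upstream and a downstream start, and the capitals of Trim21 and Trim26 are overlapping pairs of matches.
Trim30a, upstream start: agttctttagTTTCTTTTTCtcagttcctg
Trim30a, downstream start: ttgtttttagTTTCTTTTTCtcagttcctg
Trim30d: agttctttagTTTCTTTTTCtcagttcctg
Trim12a: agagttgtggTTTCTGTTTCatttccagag
Trim12c: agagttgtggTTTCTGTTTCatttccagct
Trim34a: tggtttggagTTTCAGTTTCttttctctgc
Trim21: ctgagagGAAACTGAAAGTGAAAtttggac
Trim2, most downstream start: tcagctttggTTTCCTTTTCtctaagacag
Trim26: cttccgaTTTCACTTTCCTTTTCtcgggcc

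The first 7 stretches belong to the 6 members that were higher in the mutant library by the size rule given below. They lie at chr7:104465210-104465239 and chr7:104446104-104446133 (Trim30a), chr7:104507871-104507900 (Trim30d), chr7:104315466-104315495 (Trim12a), chr7:104353359-104353388 (Trim12c) and chr7:102565447-102565476 (Trim21), all on the minus strand, and at chr7:104244457-104244486 on the plus strand (Trim34a). The motif begins 36 bases before the upstream start of Trim30a, 41 before that of Trim30d and 29 before that of Trim12c. In Trim12a and Trim34a it begins 10 bases after the start, and in Trim21 13 bases after it. These distances are from the RefSeq start of each window. For Trim12a that start lies upstream of the GENCODE gene start at 104315466, which the motif precedes. Trim30a and Trim30d share the same 30 bases. Over the 250 bases before their starts they were 92.2% identical (245 bases compared without gaps), and Trim12a and Trim12c were 81.9% identical (210 bases), so the 7 stretches are not 7 independent sequences.

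All 7 windows of these 6 genes held the motif. The only Trim30a transcript with a level, NM_009099, begins at the upstream start by its GENCODE model, so the downstream Trim30a window has no level of its own. Of the 32 members between the limits, 22 had windows, and 2 of their 33 windows held it. Of the members below 1 FPKM in both libraries, 20 had windows, and 0 of their 22 windows held it. Among all 32851 windows of the table, 3.44% held it. Windows of all genes that were higher in the mutant library held it in 20.7% (42 of 203), and those of genes between the limits in 2.55% (316 of 12393). The last 2 stretches are those of the members between the limits, at chr3:84212791-84212820 on the minus strand (Trim2) and chr17:36836979-36837008 on the plus strand (Trim26). The Trim2 stretch belongs to the start of the transcript NM_001271728, which was listed at 0 in the control library and had 0.0728 FPKM in the mutant library, a minor part of that gene's level. A match describes these letters only, and binding was not measured.

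The same windows differed in CpG content, the dinucleotide that the deleted enzymes methylate. Those of the 6 higher members held a median of 1 CpG in 300 bases (0 to 3), against a median of 17 (0 to 46) for members between the limits. A window was called CpG-rich at an observed over expected CpG ratio of at least 0.6 and at least 50% G and C. By that definition 0 of 7 windows of the higher members, 21 of 33 windows of members between the limits and 65.1% of windows of all measured genes were CpG-rich. Low CpG content was not limited to the 6 genes: among members that were not measured 1 of 22 windows was CpG-rich, with a median of 4.5 CpG, and among all genes that were higher in the mutant library 29.6% of windows were. The 120 bases before the start are printed for Trim30a at its upstream start, whose window held no CpG (chr7:104465194-104465313, minus strand) and for Trim37, whose window had the highest ratio of the members at 1.18 (chr11:87126955-87127074, plus strand), with each CpG in capitals.
Trim30a: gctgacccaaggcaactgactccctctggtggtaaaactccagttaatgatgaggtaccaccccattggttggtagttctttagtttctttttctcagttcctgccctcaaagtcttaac
Trim37: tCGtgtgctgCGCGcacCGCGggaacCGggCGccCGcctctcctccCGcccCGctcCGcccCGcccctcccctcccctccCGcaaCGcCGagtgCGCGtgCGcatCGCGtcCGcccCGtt
The Trim30a stretch holds 0 CpG and the Trim37 stretch 22. Methylation itself was not measured in these files.

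**Figure D1:**
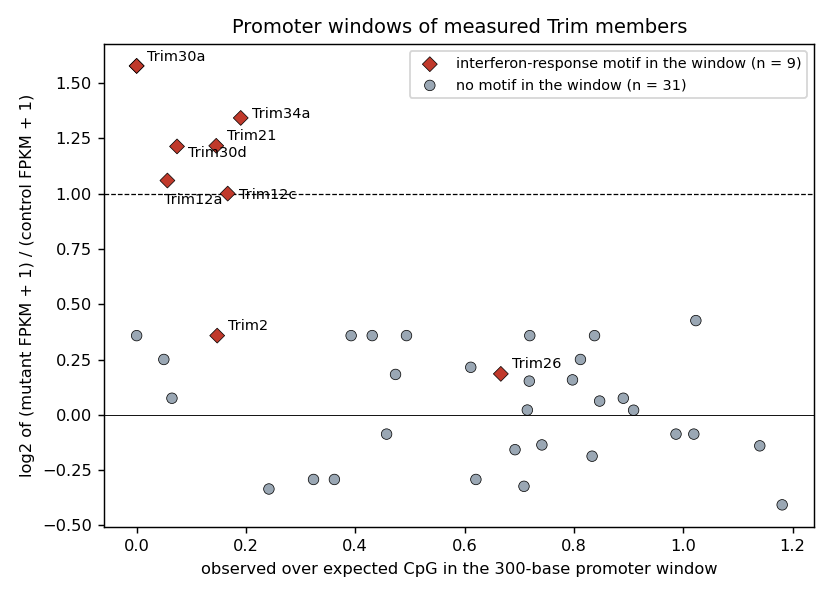
Promoter windows of measured Trim members: observed over expected CpG on the horizontal axis against the log2 ratio of mutant to control FPKM (1 added to each) on the vertical axis, 1 point per window, so a gene with several starts has several points at 1 height. Diamonds mark the 9 windows with the interferon-response motif and circles the 31 without it; the 7 points at or above the dashed line at 1 are diamonds with a CpG ratio under 0.2.

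Differences were sized as log2 of (mutant FPKM + 1) over (control FPKM + 1). The added 1 shrinks the ratios of weakly expressed genes. A value of at least 1 in either direction was counted as past the size rule. A member was called measured if either library had at least 1 FPKM, which held for 38 of the 63. By the size rule 6 of these 38 were higher in the mutant library, 0 were lower and 32 lay between. Among all 13280 measured genes, 1.84% were higher and 0.648% lower. The median log2 ratio was 0.09 for the measured members and 0.00 for all measured genes. These are descriptions and not support, because 8 members reached 1 FPKM only in the mutant library (Trim30a, Trim34a, Trim30d, Trim12a, Trim12c, Trim14, Trim59 and Trim7). Of the 357 genes of the whole table that did so, 31.7% were past the size rule. The members spread more widely than the table as a whole: 11 of 38 (28.9%) lay inside -0.16 to 0.15, the range that holds the middle 50% of the 13280 genes.

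**Figure D2:**
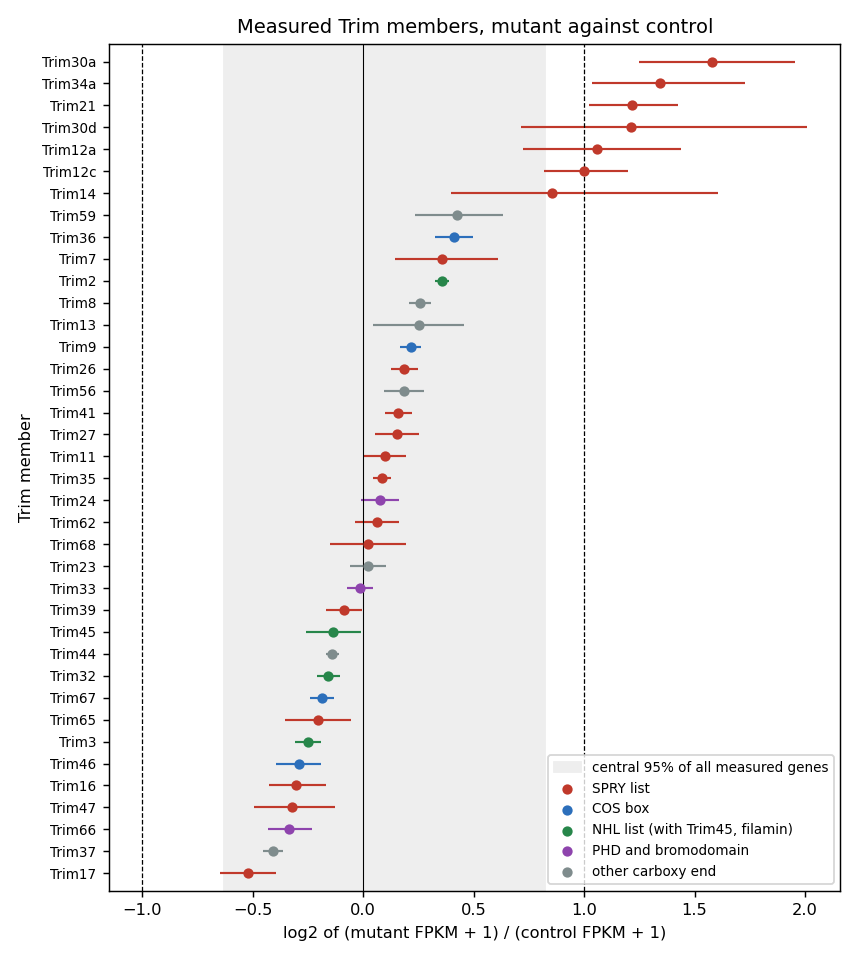
Log2 ratio of mutant to control FPKM (1 added to each) for the 38 measured Trim members, coloured by carboxy-end domain. Bars are 95% intervals for counting error only, the grey band is the central 95% of all measured genes (-0.63 to 0.82), and dashed lines mark the size rule; the top 7 members are all on the SPRY list, which was not checked on protein sequence.

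Trim30a, which restrains Toll-like receptor signalling to NF-kappaB, had the largest ratio with 1 FPKM added. It stood at 0.228 and 2.67 FPKM, or about 39.8 and 535 fragments, 11.7-fold higher (8.42 to 16.4). Here and below, a bracketed range after a fold is a 95% interval that covers counting error only. Its neighbour Trim30d was under 0.1 FPKM in the control library, at 0.0793, and had 1.5 in the mutant library, 19.0-fold higher (9.75 to 42.2) on 9.02 control fragments. Trim30d was the only member under 0.1 FPKM in the control library and at least 1 in the mutant, which held for 0.309% of all measured genes.

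Trim34a, an interferon-induced relative of TRIM5, had 0.366 and 2.46 FPKM (6.73-fold higher, 4.92 to 9.62). The TRIM5-like gene Trim12a had 0.680 and 2.50 FPKM (3.68-fold, 2.61 to 5.22). Trim12c, its close copy, had 0.951 and 2.90 FPKM (3.05-fold, 2.56 to 3.66). At a log2 ratio of 1.0 Trim12c was the member just inside the size rule. All 3 were thus present at low levels in the control library and higher in the mutant.

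Trim21, the cytosolic receptor that marks antibody-coated viruses for degradation, was the most abundant of the 6 higher members in both libraries. It had 1.36 and 4.49 FPKM (3.29-fold higher, 2.79 to 3.93). It was also the only one of the 6 that reached 1 FPKM without the mutant library. Trim14, a RING-less adaptor of antiviral signalling at mitochondria, lay just outside the size rule with a log2 ratio of 0.85. It had 0.130 and 1.04 FPKM (8.04-fold higher, 3.76 to 18.8), on 7.78 control fragments. Exons of Trim14 overlap those of Nans on the opposite strand, which reached 13.6 FPKM. The sources used here do not give the strand setting of the counting, so reads of Nans cannot be told apart from those of Trim14.

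**Figure D3:**
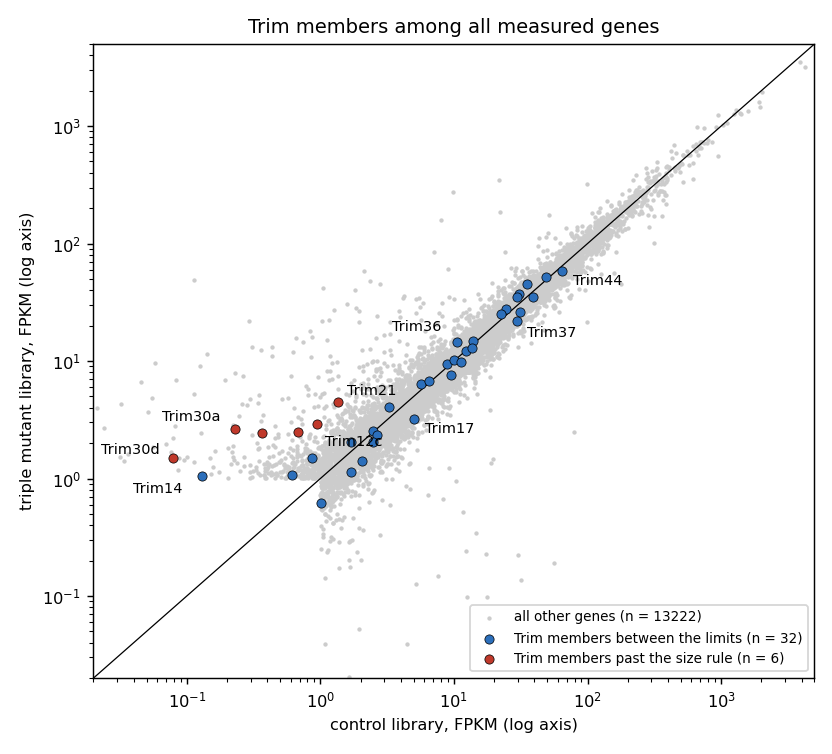
FPKM in the control library (horizontal) against the triple mutant library (vertical), both on log axes, for measured genes above 0 in both libraries. The line marks equal values, 20 genes listed at 0 in a library are not drawn and 5 lie beyond the axes at 0.02 FPKM; the 6 members past the size rule sit below 2 FPKM in the control, and the abundant members lie near the line.

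The paralogue cluster on chromosome 7 holds 8 of the listed genes, and 5 of the 6 higher members. In genome order they are Trim6 (chromosome 7, 104218793 to 104235152, plus strand, GRCm38), Trim34a (104244457 to 104262234, plus), Trim12a (104299894 to 104315466, minus), Trim34b (104329471 to 104336909, plus), Trim12c (104338754 to 104353362, minus), Trim30b (104355382 to 104369884, minus), Trim30a (104409025 to 104465193, minus) and Trim30d (104470014 to 104507849, minus). The other 3 genes were barely detected in either library. Trim6, which builds free ubiquitin chains that activate the kinase Ikbke, had 0.0618 and 0.135 FPKM (2.18-fold, 1.02 to 4.76). Trim34b and Trim30b were listed at 0 in the control and had 0.0257 and 0.0135 FPKM in the mutant, under the floor of 3 fragments in both libraries, so no fold is given. None of these 3 had the motif in its promoter window.

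Copies in this cluster share sequence, so the split of fragments between them is uncertain. Of all 50-base stretches in the GENCODE M21 transcripts of Trim34a, 60.8% also occur in another gene, most often Trim34b. The share was 31.2% for Trim12a and 33.7% for Trim12c, most often in Trim5, a symbol not analysed here. It was lower for Trim30a (6.53%) and Trim30d (7.59%), and 0.287% for Trim21. Summed over the 8 genes, the cluster had 2.37 and 12.2 FPKM (5.16-fold higher, 4.57 to 5.84). The sum also depends on that split, because the copies differ in length and Trim5 lies outside the sum. Trim12a with Trim12c came to 1.63 and 5.40 FPKM, the Trim30 genes to 0.308 and 4.18, and the Trim34 genes to 0.366 and 2.49. Trim21 (102557921 to 102565486, minus strand) and its relative Trim68 (102677582 to 102687327, minus strand) lie elsewhere on the same chromosome. Trim68 had 2.49 and 2.54 FPKM.

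**Figure D4:**
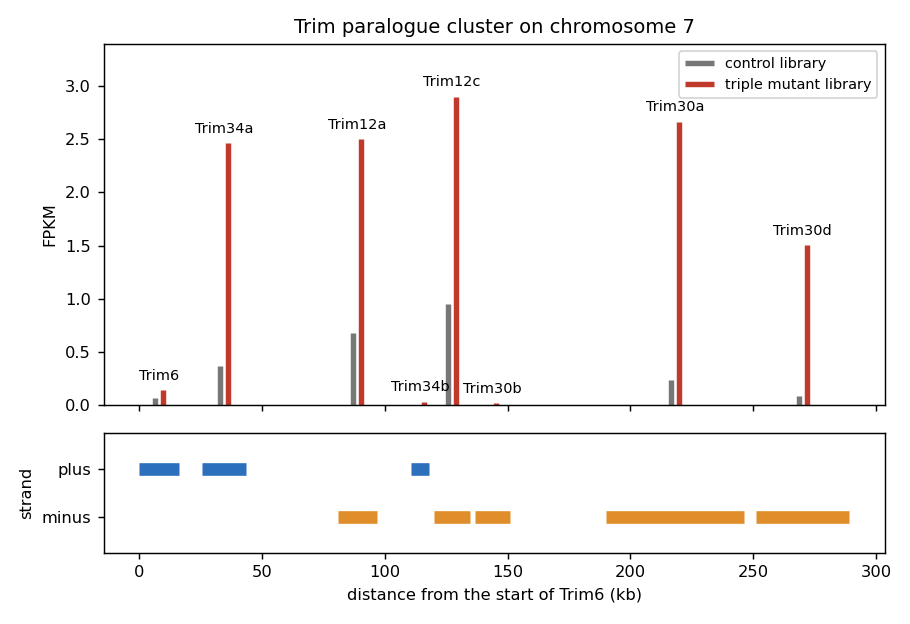
FPKM of the 8 cluster genes in the control (grey) and triple mutant library (red), drawn from 0, each at the middle of its gene. The lower panel shows gene bodies by strand, with distance in kb from the start of Trim6; mutant values of Trim34a, Trim12a, Trim12c, Trim30a and Trim30d run from 1.5 to 2.90 FPKM, while Trim6, Trim34b and Trim30b stay below 0.2.

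By carboxy end, the higher members were all on the SPRY list, drawn up by family and not checked on protein sequence. The known protein of Trim12a, which is on that list, is short and lacks the SPRY domain. Of the 36 genes of the list, 20 were measured. Of those, 6 were higher and 0 lower, and the median ratio on the log2 scale was 0.16. The COS box (4 measured of 8), NHL (4 of 5, with Trim45, which has a filamin-type domain and no NHL repeats), PHD-bromodomain (3 of 3) and remaining genes (7 of 11) had 0 past the size rule. Their medians were 0.01, -0.15, -0.01 and 0.18, and the last 2 changed sign with the table or the filter used. The list of members known to be induced by interferon had 13 genes in the table; 9 were measured, 6 were higher, all 9 lay above 0 and the median was 1.06. The interferon list was drawn up with earlier results of these data known. Of the 9, Trim30a, Trim34a, Trim30d, Trim12a, Trim12c and Trim14 reached 1 FPKM only in the mutant library. The filter thus fixed their place above 0. Among the 50 members not on that list, 29 were measured, 0 were past the size rule, and the median was 0.02.

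Known interferon-linked members did not all differ to the same degree. Trim26, which acts on antiviral signalling in the nucleus and cytoplasm and whose window holds the motif, had 24.4 and 27.9 FPKM (1.14-fold, 1.09 to 1.19). Trim56, a cofactor of nucleic acid sensing, had 1.69 and 2.05 FPKM (1.21-fold, 1.11 to 1.34). Trim38, a negative regulator of inflammatory signalling, had 0.281 and 0.322 FPKM (1.14-fold, 0.573 to 2.18). In the first 2 the level was slightly higher in the mutant library, and for Trim38 the interval includes no difference.

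Markers of microglia and macrophages, cells that are known to express several of these members, also differed between the libraries. Of 15 listed, 14 were measured and lay above 0, with 8 past the size rule on the higher side, against 1.84% of all measured genes. Lyz2, Aif1 and Itgam reached 1 FPKM only in the mutant library, so the filter fixed their place above 0. None of the 15 was at 0 in either library, and their summed levels were 51.4 and 168 FPKM. Of 10 lymphocyte markers 0 were measured, with summed levels of 0.887 and 1.73 FPKM, 4 at 0 in the control, 2 at 0 in the mutant and Cd3d at 0 in both. The part of microglia in the Trim differences was not tested. In whole-tissue RNA, a change in the number of cells of a type and a change in RNA per cell cannot be told apart.

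The genes that Trim ligases work with were compared from lists. Of 20 innate signalling genes whose products Trim ligases act on, 17 were measured, 7 higher and 0 lower, and the median was 0.08. Among all measured genes, 1.84% were higher. Zbp1, Ifih1 and Tmem173 reached 1 FPKM only in the mutant library, so the filter fixed their place above 0. The DNA sensor gene Zbp1 (0.0113 and 5.18 FPKM), the transcription factor gene Irf9 (5.44 and 34.5) and the RNA sensor gene Ddx58 (1.16 and 6.84) were among those past the size rule. The kinase and adaptor genes Tbk1 (15.3 and 14.3 FPKM), Mavs (10.7 and 9.96) and Traf3 (18.1 and 16.3) lay slightly below 0. Of 15 ubiquitin-conjugating (E2) genes, 14 were measured, 1 higher and 0 lower, and the median was 0.05. That gene was Ube2l6, the E2 that loads both ubiquitin and the interferon-induced modifier ISG15, with 2.35 and 12.6 FPKM. General E2 genes such as Ube2d3 (57.5 and 61.7 FPKM) and Ube2n (17.6 and 17.4) were near equal.

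Family members under other names had 3 of 6 measured and 0 past the size rule. Pml, the organiser of nuclear bodies and itself known to be interferon-induced, had 2.47 and 4.15 FPKM. The microtubule-binding genes Mid1 and Mid2 had 3.98 and 4.04 FPKM, and 4.14 and 2.63 FPKM. The Rnf genes, another large set with many RING ligases, had 64 measured of 76, with 1 higher (Rnf144b, 8.11 and 24.4 FPKM), 0 lower and a median of 0.01. The difference between the Trim and Rnf counts was not tested.

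Most of the family's RNA in the retina came from members that differed little. The 63 genes summed to 489 and 511 FPKM, and 15 members in each library had at least 10 FPKM. Trim44, a RING-less member with a ubiquitin-protease-like zinc finger, had the highest level, 64.5 and 58.4 FPKM (0.906 times the control, 0.887 to 0.925). Trim35 followed with 48.9 and 52.0 FPKM (1.06-fold, 1.03 to 1.09). Trim8, a regulator of cytokine signalling, had 30.8 and 37.0 FPKM (1.2-fold, 1.16 to 1.25). At these depths counting error is small, and the spread between animals, which these files cannot show, is not part of the intervals.

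The neuronal and microtubule-associated members made up much of that abundant set. All 8 listed were measured, 0 were past the size rule, 3 lay above 0 and 5 below, and the median was -0.17. Trim2, which ubiquitinates the neurofilament light chain, had 35.3 and 45.5 FPKM (1.29-fold, 1.26 to 1.32). Its NHL relatives were lower, Trim3 with 31.3 and 26.1 FPKM (0.835 times the control, 0.800 to 0.872) and Trim32 with 39.1 and 34.9 (0.894 times, 0.862 to 0.927). Trim9, a partner of the netrin receptor in axon branching, had 29.8 and 34.8 FPKM, and its paralogue Trim67 had 11.4 and 9.89. Trim37, a ligase of centrioles and peroxisomes, had 29.4 and 22 FPKM (0.746 times, 0.722 to 0.771). The levels of 3 of these abundant genes depend on the deposited table. In the second table Trim3 had 10.1 and 8.28 FPKM, Trim9 12.6 and 14.3, and Trim26 13.6 and 15.7, which takes Trim3 and Trim9 out of the 8 most abundant, while the direction of each difference was the same. In both tables, paralogues of 1 subgroup stood on opposite sides of 0. Exons of Trim46 overlap Krtcap2 (up to 52.7 FPKM) and those of Trim41 overlap Rack1 (up to 227 FPKM) on the opposite strand, so the levels of these 2 members are uncertain.

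Below the size rule, Trim17, whose product acts in neuronal apoptosis, had the lowest ratio of the measured members with 1 FPKM added. It had 5.05 and 3.21 FPKM (0.636 times the control, 0.566 to 0.714). Without the added 1, the weakly expressed Trim16 was lower still among them (1.0 and 0.623 FPKM, 0.620 times, 0.491 to 0.781). Trim59, which encodes a membrane-anchored member, had 0.866 and 1.51 FPKM (1.74-fold, 1.38 to 2.19), and Trim7, first known as a glycogenin partner, had 0.616 and 1.07 (1.74-fold, 1.28 to 2.38). A further 19 measured members, not counting those given above as past the size rule, among the 8 most abundant or among the 6 next largest ratios, ran from 1.0 to 24.4 FPKM in the control. Their log2 ratios ran from -0.34 to 0.25, with 10 above 0 and 9 below. Chromatin members were among them: Trim24, a coregulator of retinoic acid receptors, had 8.84 and 9.36 FPKM, Trim33 had 12.4 and 12.2, and Trim66 had 2.04 and 1.41.

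Trim36, a COS box gene (chromosome 18, 46165300 to 46212607, minus strand), had the largest difference in transcript use among the 8 members with several transcripts and at least 5 FPKM in both libraries. Its summed levels were 10.6 and 14.4 FPKM (1.36-fold, 1.27 to 1.45). The long transcript NM_178872 (4546 bases) had 2.42 and 7.81 FPKM, and the short transcript NM_001170855 (2553 bases) had 8.21 and 6.63. The long form thus made up 22.8% (control) and 54.1% (mutant) of the gene's FPKM, a difference of 31.3 points. By the GENCODE M21 models the short form starts 13789 bases downstream of the long one, and both have 10 exons. The models also differ at the 3′ end, which lies at 46167292 for the short form and 46165300 for the long one. Which end of the gene gave the difference in share was not tested. A difference of at least 30 points was seen in 0.907% of all 2426 multi-transcript genes with at least 5 FPKM in both libraries, and in 1 of the 8 such Trim members.

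The other 7 of these members differed less. The Trim9 transcript NM_001110202 made up 58.4% and 69.6% (76.0% and 87.3% in the second deposited table, where NM_053167 is listed at 0 in both libraries). The Trim46 transcript NM_001039466 made up 39.5% in the control and 10.5 points more in the mutant. In the second deposited table that Trim46 transcript made up 45.3% and 59.4%. In Trim2, NM_001271727 carried 81.9% and 85.9% of the level, and NM_030706 carried 17.4% and 8.29%. Members under 5 FPKM could differ more, on few fragments: the Trim47 transcript NM_001205081 had 0 and 0.379 FPKM, or 0% and 33.1% of its gene. Shares are the authors' estimates of how fragments divide between overlapping transcripts, and their error is not known from 1 library per genotype.

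**Figure D5:**
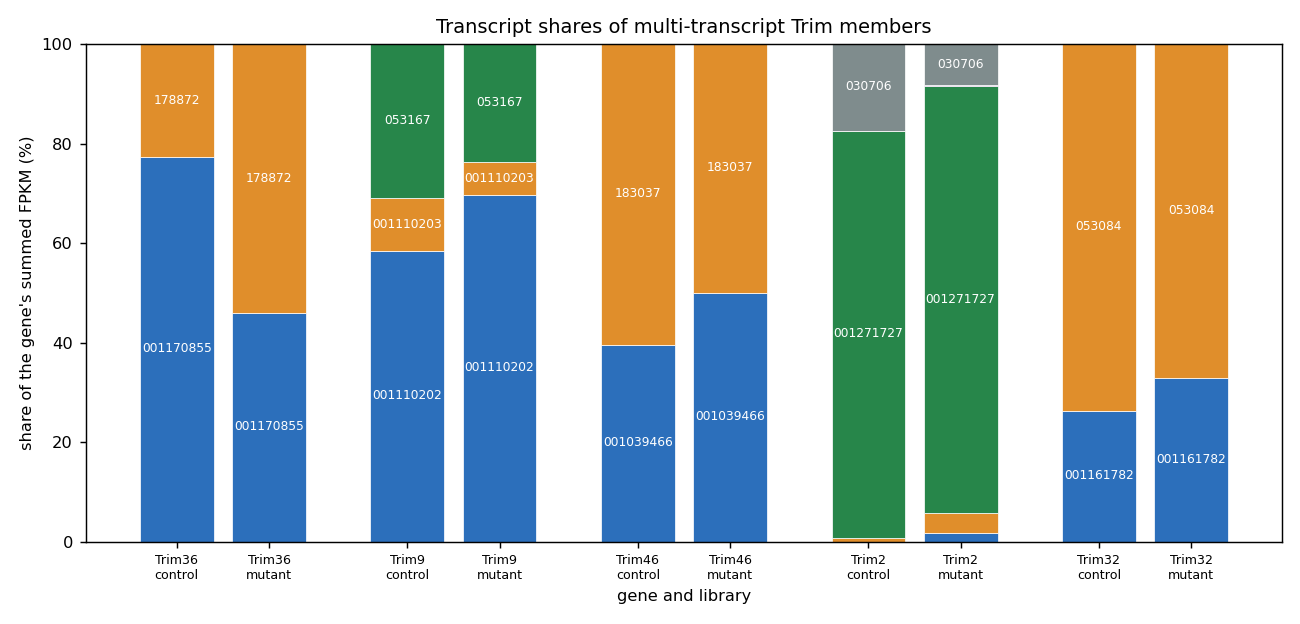
Share of each gene's summed FPKM by transcript, in percent, in the control and mutant library, for the 5 Trim members with the largest differences among those with several transcripts and at least 5 FPKM in both libraries. Segments carry the digits of the RefSeq NM identifier, and colours only separate the transcripts of 1 gene; in Trim36 the segment of NM_178872 goes from 22.8% to 54.1%.

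The 25 members below 1 FPKM in both libraries had medians of 0.0618 and 0.0672 FPKM, and reached at most 0.462. Trim31, Trim40, Trim54 and Trim69 were listed at 0 in both. Trim34b, Trim30b, Trim43b and Trim52 were listed at 0 in the control alone, and Trim42 and Trim50 in the mutant alone. Most germ cell and early embryo members were in this set: of the 10 listed only Trim17 was measured, and the 10 summed to 6.32 and 4.05 FPKM. Trim71, a let-7 target that keeps stem cells undifferentiated, had 0.336 and 0.259 FPKM, and the preimplantation genes Trim43a, Trim43b and Trim43c, close copies of each other, had 0.431, 0 and 0.149 in the control and 0.221, 0.0672 and 0.107 in the mutant.

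Muscle members were also low. Trim63, the muscle atrophy ligase MuRF1, had 0.203 and 0.379 FPKM (1.86-fold, 1.01 to 3.49), and the membrane repair gene Trim72 had 0.214 and 0.237. Trim55 had 0.101 and 0.0217. Summed levels of 10 skeletal muscle markers were 5.38 and 5.99 FPKM, with Myh2, Myh4, Myog and Tnnt3 listed at 0 in the control and none in the mutant.

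In the authors' deposited table, 69 of 19556 tested transcripts (0.353%) were called significant by Cuffdiff, and 0 of 59 tested Trim transcripts were. The lowest q-value of the authors' deposited table among Trim transcripts was 0.197, for Trim30a. That test compares these libraries and not the genotypes.

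Depth was estimated from the smallest steps in the values. A gene at 1 FPKM had about 48.8 (control) and 56.2 (mutant) fragments for each kb of its transcript. Over 2 kb, a floor of 3 fragments is 0.0342 and 0.0297 FPKM. The 9 measured retina markers had summed levels of 7247 and 6335 FPKM. Markers of tissue next to the retina differed too: lens markers summed to 168 and 7.62 FPKM, and pigment epithelium markers to 135 and 7.29. Their part in the Trim values was not tested.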

How the data were processed

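Retinal total RNA was sequenced as 1 control and 1 triple mutant library. The submitters' processing notes name TopHat2 2.0.8, Cuffdiff 2.1.1 and mm10, with no role given. Read length, strand setting and annotation are not stated there. Per the file headers, the authors deposited FPKM for single RefSeq transcripts as 2 tables. Beside them the authors deposited a log2 fold change, a test statistic (a score), a p-value and a q-value, per the file headers.

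Gene FPKM was summed over transcripts in the table that carries symbols. Genes needed 1 transcript or more with status OK, and none with a failed or excessive-data status. Fragments were recovered from steps between low values of genes with a single transcript of 3000 bases or longer: whole multiples, within 10% of a step, made up 78.0% of 182 values in the control and 75.3% of 166 in the mutant. This assumed fragments of 200 bases; lengths of 150 and 250 gave 74.1% to 78.6%. Fold intervals are exact binomial (Clopper-Pearson) on those fragments, with scipy 1.17.1 in Python 3.11.15. They rest on that depth and on transcript lengths from GENCODE M21 (GRCm38, the assembly of mm10), and are centred on the FPKM ratio.

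The members, lists and naming rule were chosen with earlier results of these data known. Named in full were members past the size rule, the chromosome 7 cluster, the 8 most abundant members, the 6 next largest ratios, members that were near 0 (under 0.1 FPKM) in a single library and measured in the other, the 3 largest differences in transcript share, and up to 4 genes of a related list; some genes of these lists are not reported here. Members below 1 FPKM that the rule does not name (such as Trim38, Trim63 and Trim71), and related genes beyond those 4, were chosen after their values were seen. The size rule and motif search were tested on simulated data. For the size rule, only genes of at least 5 FPKM in the control library were simulated. All higher members lie below that level in the control, so the simulation does not cover them. Alternatives were other pseudocounts and filters, a scaling, the second table, a stricter motif and the removal of copies.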

Additional observations from a re-analysis of the deposited data

How the results depend on the processing

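No paired analysis was possible because each group has 1 library. The count of 6 higher members was 7 with a pseudocount of 0.1 FPKM (Trim14 joined). The same 6 genes were higher in the second table, after scaling by the median ratio of all genes, and without a filter on low values. Dropping the filter could not change the count, because the size rule on the higher side already requires at least 1 FPKM in the mutant library. The scaling factor was 0.9996 and the second table gives these 6 genes nearly the same FPKM, so both are weak checks. The count was 0 with a pseudocount of 5 and 0 among members of at least 5 FPKM. The 6 reach at most 4.49 FPKM, so both of these settings leave them out by construction. Among all genes, the larger pseudocount left 0.693% higher and the smaller 2.94%. Without members that share at least 20% of their 50-base stretches with other genes, an alternative chosen after seeing the data, 3 were higher (Trim21, Trim30a and Trim30d). The cluster median of 1.21 became 2.46 with a pseudocount of 0.1 and 0.41 with 5. The interferon-induced median of 1.06 became 1.74 with 0.1 and 0.40 with 5. Every measured cluster gene reached 1 FPKM only in the mutant library, so the filter fixed the cluster median above 0. With Trim14 these genes made up most of the measured interferon-induced list, so the sign of its median was fixed too. The PHD-bromodomain median of -0.01 was 0.04 in the second table, and that of the remaining carboxy ends, 0.18, was -0.06 at 5 FPKM or more. No member was lower by the size rule under any of these alternatives. All 76 recomputed ratios of 19 named members kept their sign, but most of them could not have done otherwise. A pseudocount cannot change a sign, and the scaling factor was 0.9996, so only the second table could have changed it. With a stricter motif that adds a C at the 3′ end, 6 of the 7 windows held it. The difference in Trim36 transcript share was also 31.3 points in the second table. There, both Trim36 transcripts are rescaled by the same factor within each library, so this is not a separate check. Depth limits the folds of Trim30d, Trim14 and Trim6, with 9.02, 7.78 and 10.9 control fragments.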
